A study of Mus musculus with 2 samples.

Results

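Klf4, Klf5, Klf6, Ehf, Elf3, Grhl3, Ovol1 and Zfp750 are 8 transcription factors of epithelial differentiation, taken by gene symbol from the 32285 genes counted in single cells of mouse cornea and limbus. The limbus is the rim of the cornea that holds its epithelial stem cells. The study set Pax6 +/- mice, labelled Pax6 heterozygous, against wild-type mice, with 1 library per genotype made with the 10x Genomics droplet system. The eyes had been stripped of lens, retina, iris and most of the conjunctiva, and the tissue was digested to single cells. The series description names 2 mice per genotype, but the labels used here do not say whether they were pooled, and give no age, sex, strain or description of the Pax6 allele. With no replicate library there is no test and no p-value in what follows. "Higher" and "lower" compare the pair of libraries at hand, and the 95% intervals cover counting error alone.

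Stratified epithelia such as the cornea renew from a basal layer, and cells leaving it switch on a shared set of transcription factors that drive keratin exchange, junctions and barrier formation. Krüppel-like factors bind GC-rich and CACCC sequences through zinc fingers. Klf4 is needed in mice for the barrier of the skin and for a normal corneal epithelium, Klf5 is known for supporting basal cell proliferation, and Klf6 is induced rapidly by growth signals and stress. Ehf and Elf3 are ETS factors largely restricted to epithelia. Grhl3 is a grainyhead factor of barrier formation, Ovol1 is a zinc-finger repressor that restrains proliferation, and Zfp750 is the mouse counterpart of human ZNF750, which promotes terminal differentiation of human keratinocytes together with KLF4.

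The 250 bases before the start annotated by RefSeq are shown for Klf4, which was furthest apart between the libraries, and for Elf3 and Grhl3, whose levels moved together across cell states. Sequences are from RefSeq (GRCm38.p6), 5′ to 3′ on the strand of the gene, and RefSeq windows were matched for 4 of the 8 members. Capitals mark the GC box GGGCGG and the CACCC box CCACCC, searched on both strands.
Klf4 (chr4:55532476-55532725, minus strand): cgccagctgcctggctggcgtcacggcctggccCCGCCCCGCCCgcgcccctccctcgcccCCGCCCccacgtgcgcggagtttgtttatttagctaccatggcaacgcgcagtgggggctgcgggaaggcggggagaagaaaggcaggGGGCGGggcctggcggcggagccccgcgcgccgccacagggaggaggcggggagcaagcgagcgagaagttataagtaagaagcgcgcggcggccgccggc
Elf3 (chr1:135258473-135258722, minus strand): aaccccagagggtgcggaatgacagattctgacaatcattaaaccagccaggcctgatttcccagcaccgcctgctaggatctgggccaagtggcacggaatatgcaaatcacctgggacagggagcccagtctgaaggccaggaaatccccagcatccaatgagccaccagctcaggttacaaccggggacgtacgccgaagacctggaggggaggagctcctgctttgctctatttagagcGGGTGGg
Grhl3 (chr4:135573633-135573882, minus strand): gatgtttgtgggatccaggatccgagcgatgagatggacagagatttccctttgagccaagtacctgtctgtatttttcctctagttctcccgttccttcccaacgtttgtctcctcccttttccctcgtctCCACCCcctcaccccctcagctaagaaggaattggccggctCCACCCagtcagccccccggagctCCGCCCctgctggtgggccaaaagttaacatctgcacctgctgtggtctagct

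The Klf4 window held 4 GC boxes, of which 2 overlap by 1 base, and no CACCC box. Grhl3 had 2 CACCC boxes and 1 GC box, Elf3 had 1 CACCC box, and the Klf6 window, not shown, had 1 GC box. Among the 32851 RefSeq windows of the same length, 32.7% held a GC box and 28.1% a CACCC box, so the presence of either is common. None of the 4 windows held the grainyhead letters AACCNGTT (in 1.79% of all windows), the ETS letters AGGAAG (29.5%), the Ovol-type letters CCGTTA (2.18%), the AP-1 letters TGANTCA (6.75%) or the letters TATAAA (12.4%). A match describes letters and does not show binding, and no match says only that these letters are not in this window.

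Gene positions are from GENCODE, whose starts differ from those of RefSeq, so that part of the Elf3 window shown lies inside the gene as placed here. On GRCm38 the Krüppel-like genes are Klf4 (ENSMUSG00000003032, chromosome 4, 55527143 to 55532466, minus strand), Klf5 (ENSMUSG00000005148, chromosome 14, 99298691 to 99315036, plus strand) and Klf6 (ENSMUSG00000000078, chromosome 13, 5861482 to 5870394, plus strand). The ETS genes are Ehf (ENSMUSG00000012350, chromosome 2, 103263433 to 103303278, minus strand) and Elf3 (ENSMUSG00000003051, chromosome 1, 135253575 to 135258568, minus strand). Grhl3 (ENSMUSG00000037188) lies on chromosome 4, 135541888 to 135573630, Ovol1 (ENSMUSG00000024922) on chromosome 19, 5549136 to 5560646, and Zfp750 (ENSMUSG00000039238) on chromosome 11, 121510978 to 121519333, all on the minus strand.

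The libraries held 10574 barcodes and 131567589 UMIs (unique molecular identifiers, 1 per captured RNA molecule) for the library labelled Pax6 heterozygous, and 11354 barcodes and 124540296 UMIs for the wild-type library. Epithelial cells, defined as cells with at least 30 UMIs of Krt5, Krt14 and Krt15 together per 10000, numbered 6796 and 8552, with medians of 14175 and 11294 UMIs per cell. Pax6 itself stood at 743 CPM (UMIs per 1000000 UMIs of the cell class, without mitochondrially encoded genes) in epithelial cells of the library labelled Pax6 heterozygous and at 372 CPM in wild-type epithelial cells. This goes against the direction that the label would give, so the library is called by its label throughout, and RNA from a mutant and a normal allele was not told apart. Krt12, the keratin of the differentiated cornea, stood at 1769 CPM against 29618 CPM. The gate lay closer to the wild-type cells, whose median of the 3 keratins was 70.3 per 10000, against 144 in the library labelled Pax6 heterozygous. Gated cells at 30 to 40 per 10000 numbered 752 in wild type against 138, and cells left out at 20 to 30 numbered 427 against 154. Wild-type cells outside the gate held 5507 CPM of Krt12, against 119 CPM. RNA of markers of other classes was also found inside the gate. At least 3 markers of one non-epithelial class were found in 30.5% of gated cells labelled Pax6 heterozygous and in 1.65% of wild-type ones. Summed over the gated cells, the 8 keratocyte markers came to 558 CPM against 108 CPM, the 8 endothelial markers to 17.9 against 4.29 CPM and the 8 immune markers to 27.5 against 6.69 CPM. The 7 mural markers came to 138 against 124 CPM and the 7 Schwann markers to 148 against 119 CPM, and all of these markers had UMIs in both libraries. The 5 melanocyte markers went the other way, at 2.19 against 4.42 CPM, and only 4 of them had UMIs in the wild-type library. Whether the epithelial cells themselves made any of this RNA was not tested. The library labelled Pax6 heterozygous held 2485 gated cells with Y-linked UMIs and no Xist, and the wild-type library held 0. Of the barcodes, 40 occurred in both libraries, and they left the ratios below nearly as they were.

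Across all epithelial cells 6 of the 8 factors were lower in the library labelled Pax6 heterozygous, Klf5 was higher and Ovol1 was close to even. Their median log2 ratio was -0.44, against 0.17 for the 7092 genes that reached 20 CPM in one library or both. By the size rule of 2-fold, 2 members (Klf4 and Zfp750) were lower and 0 were higher. Over all genes tested, 6.44% were at least 2-fold lower and 13.2% at least 2-fold higher. The 8 members are too few to read more than their own values from that count.

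Klf4 stood at 364 CPM in cells labelled Pax6 heterozygous and at 982 CPM in wild-type cells. The ratio was 0.371 (95% interval 0.366 to 0.375), the lowest among the members. The typical cell differed too: the median epithelial cell held 2.05 Klf4 UMIs per 10000 in the library labelled Pax6 heterozygous and 8.12 in the wild-type library. Cells were also thinned to 5000 UMIs each, which left out cells with fewer, 858 of 6796 labelled Pax6 heterozygous and 1608 of 8552 wild-type ones. Of the thinned cells, 61.7% of those labelled Pax6 heterozygous and 96.4% of the wild-type ones held a Klf4 UMI. Without thinning, and over all epithelial cells, the shares were 75.8% and 93.1%.

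Klf5 ran the other way, with 472 CPM in cells labelled Pax6 heterozygous and 293 CPM in wild-type cells. The ratio was 1.61 (1.59 to 1.63), and Ovol1, at 1.03, was the only other member above 1. A Klf5 UMI was found in 85.4% of thinned cells labelled Pax6 heterozygous and in 69.0% of thinned wild-type cells. Klf6 stood at 536 CPM against 745 CPM in wild type, a ratio of 0.720 (0.712 to 0.728).

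The ETS factors were moderately lower. Ehf stood at 485 CPM in cells labelled Pax6 heterozygous and at 645 CPM in wild-type cells, a ratio of 0.752 (0.743 to 0.761). Elf3 stood at 469 CPM against 544 CPM, a ratio of 0.861 (0.851 to 0.872), and was found in nearly equal shares of thinned cells, 64.6% and 64.3%. With each cell weighted equally instead of by its depth, the Elf3 ratio was 1.04, so its direction depends on that weighting.

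Grhl3 was sparse in both libraries, with 28.1 CPM in cells labelled Pax6 heterozygous and 50.4 CPM in wild-type cells (ratio 0.559, 0.534 to 0.584). Zfp750 stood at 80.4 CPM against 198 CPM, a ratio of 0.406 (0.396 to 0.416), and a UMI of it was found in 22.2% of thinned cells labelled Pax6 heterozygous and in 39.2% of thinned wild-type cells. Ovol1 stood at 118 CPM against 115 CPM, a ratio of 1.03 (1.01 to 1.06), which fell below 1 with edgeR's TMM scaling (0.820), with DESeq2 size factors (0.808) and with a stricter epithelial gate of 100 per 10000 (0.665). Zfp750 lies inside Tbcd, which is read from the opposite strand, Elf3 overlaps an antisense gene and Ovol1 overlaps 2. The sources used here do not state whether counting used the strand, so reads of such partners cannot be told apart. Tbcd stood at 66.8 CPM against 62.9 CPM in epithelial cells. In the non-epithelial cells described next it stood at 25.9 CPM against 24.6 CPM.

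Vessel, mural, Schwann and immune cells outside the gate served to show how much of each factor appears where its own epithelium is absent, free RNA included. There were 1132 such cells in the library labelled Pax6 heterozygous and 243 in the wild-type library, at medians of 6514 and 3498 UMIs. Zfp750 stood in them at 1.05 CPM in the library labelled Pax6 heterozygous and at 22.7 CPM in the wild-type library, Ehf at 7.14 against 35.5 CPM and Elf3 at 9.95 against 26.6 CPM. Ovol1 and Grhl3 each stood at 0.585 against 4.93 CPM. All 5 were thus below their epithelial levels. After thinning, a Zfp750 UMI was found in 0.513% of 779 such cells labelled Pax6 heterozygous and in 4.69% of 64 wild-type ones, and a Klf5 UMI in 9.88% and 7.81%. Krt12 in the same cells stood at 25.9 against 1693 CPM. Klf4 and Klf6 were high in these cells, at 1176 against 970 CPM and 588 against 604 CPM. Without gated cells that held 3 or more markers of another class, the Klf4 ratio was 0.366 and the Klf6 ratio 0.709. Among cells that held Xist but lacked Y-linked UMIs, the ratios were 0.374 for Klf4, 1.66 for Klf5, 0.475 for Zfp750 and 0.912 for Ovol1.

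The epithelium of the 2 libraries was composed differently by keratin, so the factors were compared within states. Cells with at least 20 Krt12 UMIs per 10000, called Krt12-high, made up 581 of 6796 cells labelled Pax6 heterozygous and 8376 of 8552 wild-type cells. They were divided by Krt13, a keratin of upper layers and mucosal epithelia, at 5 per 10000, and the rest by Krt14, a basal keratin, at the wild-type median. Krt12-low cells were divided by Krt4, another mucosal keratin, at 5 per 10000, and the rest by Gpha2, a marker of limbal stem cells, at 2 UMIs. None of the members was used to define a state. In 3 of the 6 states both libraries held at least 50 cells: Krt12-high Krt13-high (90 cells labelled Pax6 heterozygous and 857 wild-type cells), Krt12-high Krt14-high (452 and 3760) and Krt12-low Gpha2-positive (2862 and 125). The other 3 had too few cells of one library and are shown only as levels. The cells of a state were not fully matched between the libraries. In Krt12-high Krt13-high cells Krt12 stood at 21334 CPM in the library labelled Pax6 heterozygous against 37035 CPM in wild type. Krt4 stood there at 1176 against 174 CPM. Krt12 stood at 15888 against 23014 CPM in Krt12-high Krt14-high cells and at 30.8 against 823 CPM in Krt12-low Gpha2-positive cells.

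**Figure D1:**
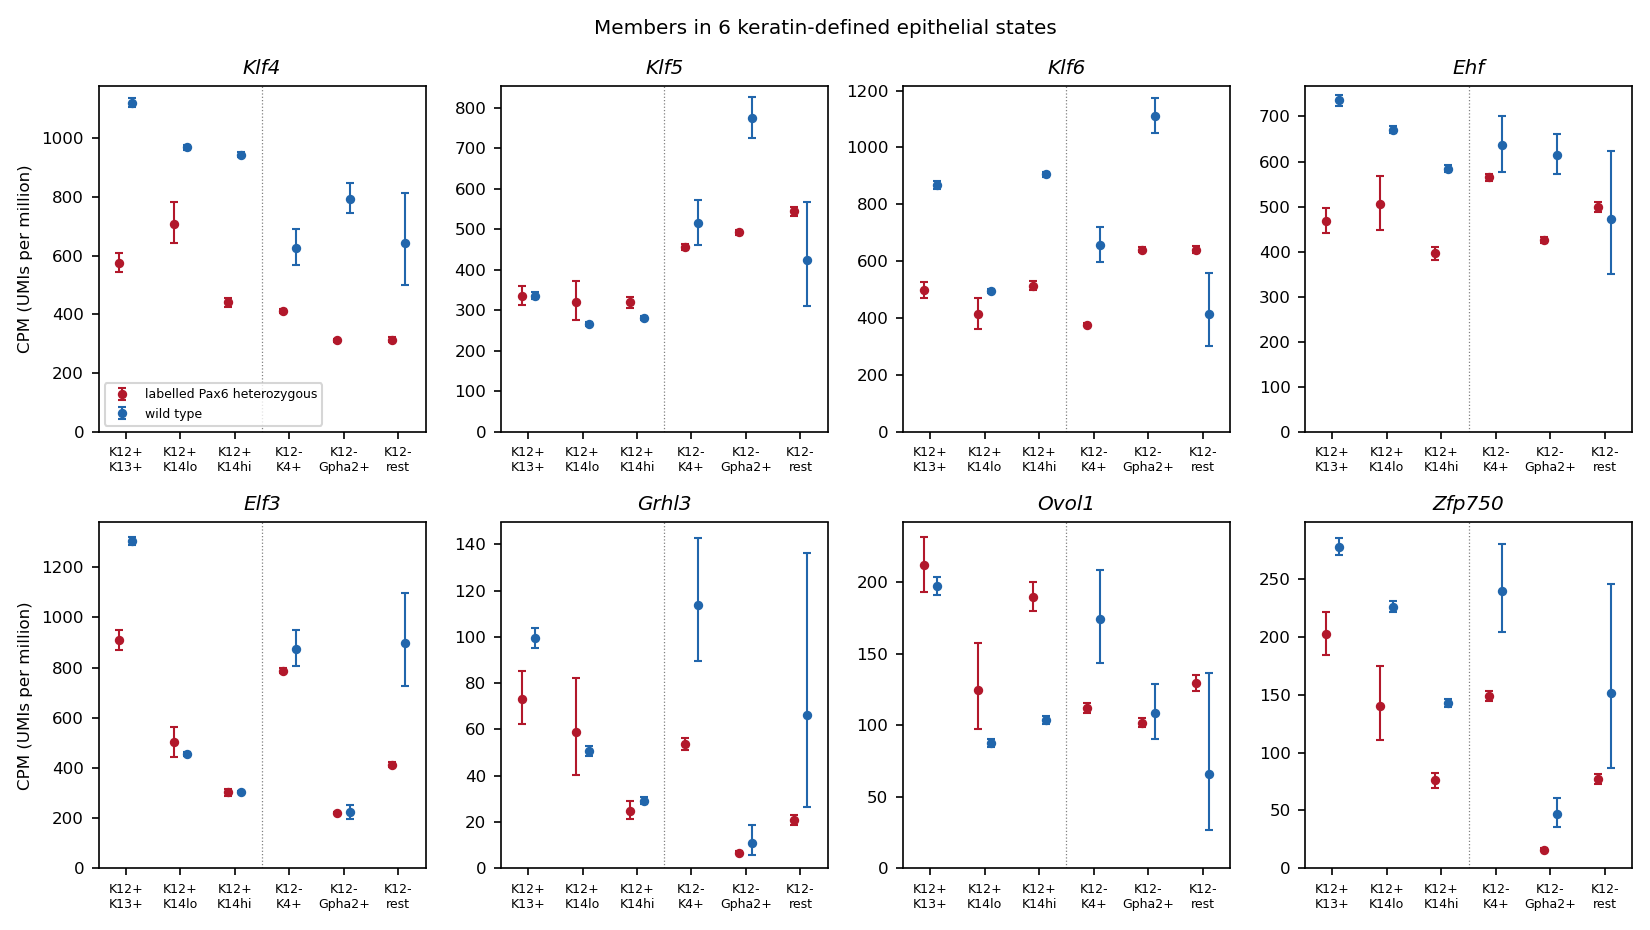
Level of each factor in CPM in 6 keratin-defined epithelial states, with the library labelled Pax6 heterozygous in red and the wild-type library in blue (K is Krt, + and hi are high or positive, - and lo are low, bars are exact 95% Poisson intervals). Klf4, Klf6, Ehf, Grhl3 and Zfp750 lay lower in red in all 3 states with at least 50 cells of each. The Grhl3 intervals overlapped in the Krt12-high Krt14-high and the Gpha2-positive states. Among the states with at least 50 cells, Elf3, Grhl3 and Zfp750 were lowest in the Gpha2-positive state of both libraries.

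Klf4 was lower in each comparable state. It stood at 576 CPM in Krt12-high Krt13-high cells labelled Pax6 heterozygous and at 1122 CPM in the wild-type ones, a ratio of 0.514 (0.486 to 0.543). Krt12-high Krt14-high cells held 441 CPM against 944 CPM (ratio 0.467, 0.451 to 0.484). The gap was widest in the Krt12-low Gpha2-positive state, with 311 CPM against 794 CPM (ratio 0.392, 0.367 to 0.419). Among the states with at least 50 cells, Krt12-high Krt13-high cells held most and Gpha2-positive cells least, 1.85-fold apart in the library labelled Pax6 heterozygous and 1.41-fold apart in the wild-type library. The Klf4 gap between libraries was wider than its spread over the states of either library.

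Klf5 behaved differently by state. In Krt12-high Krt13-high cells it stood at 336 CPM in both libraries, with a ratio of 0.999 (0.926 to 1.08). Krt12-high Krt14-high cells held 319 CPM in the library labelled Pax6 heterozygous and 282 CPM in the wild-type library, a ratio of 1.13 (1.08 to 1.18). In Krt12-low Gpha2-positive cells Klf5 was lower in the library labelled Pax6 heterozygous, at 492 CPM against 774 CPM (ratio 0.636, 0.595 to 0.680). The excess of Klf5 over all epithelial cells thus had no counterpart of its size in any of the 3 states. Klf5 was higher in Krt12-low than in Krt12-high cells of both libraries. It stood at 323 CPM in Krt12-high cells and 488 CPM in Krt12-low cells of the library labelled Pax6 heterozygous, and at 286 CPM and 667 CPM in those of the wild-type library.

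Klf6 had nearly the same ratio in the 3 states, 0.574 in Krt12-high Krt13-high cells, 0.567 in Krt12-high Krt14-high cells and 0.576 in Gpha2-positive cells. The last of these held 640.4 CPM in the library labelled Pax6 heterozygous and 1111 CPM in the wild-type library, the highest Klf6 level among the compared states of each. Ehf varied least among the members over the states, 1.43-fold in the library labelled Pax6 heterozygous and 1.26-fold in the wild-type library. Its ratio lay between 0.636 and 0.693 in the 3 states.

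Elf3 was level between the libraries in the Gpha2-positive and Krt14-high states and lower in the Krt13-high state. Gpha2-positive cells held 221 CPM in the library labelled Pax6 heterozygous and 223 CPM in the wild-type library (ratio 0.994, 0.879 to 1.13), and Krt12-high Krt14-high cells 302 CPM against 303 CPM (ratio 0.998, 0.954 to 1.04). Krt12-high Krt13-high cells held 910.2 CPM against 1306 CPM (ratio 0.697, 0.667 to 0.729). The difference between these ratios was not tested.

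Grhl3 and Zfp750 were lower in the library labelled Pax6 heterozygous in the same Krt13-high state, at 73.1 CPM against 99.5 CPM and at 203 CPM against 278 CPM. Zfp750 was lower in the other 2 states too, with 75.9 CPM against 143 CPM in Krt12-high Krt14-high cells and 16.2 CPM against 47.0 CPM in Gpha2-positive cells (ratio 0.344, 0.261 to 0.460). Its level in non-epithelial cells, given above, equalled a larger part of the wild-type Gpha2-positive value than of the other one. The ratio was not corrected for it. For Grhl3 in Gpha2-positive cells, 6.74 CPM against 10.9 CPM, the interval of the ratio (0.355 to 1.17) included 1. Ovol1 was higher in Krt12-high Krt14-high cells labelled Pax6 heterozygous, at 189.7 CPM against 103 CPM (ratio 1.83, 1.73 to 1.95). Its intervals included 1 in the Krt13-high state (ratio 1.07, 0.975 to 1.18) and in the Gpha2-positive state (ratio 0.938, 0.787 to 1.13).

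By the 2-fold rule, 0 members were lower in the Krt13-high state (5.57% of all genes), 1 in the Krt14-high state (4.6%) and 2 in the Gpha2-positive state (4.08%), and 0 were higher in each (15.6%, 7.88% and 7.61%). Zfp750 in the Gpha2-positive state was counted without correction for its level in non-epithelial cells. The members' median log2 ratios were -0.49, -0.39 and -0.67, beside 0.25, 0.02 and 0.08 for all genes tested in the same states.

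**Figure D2:**
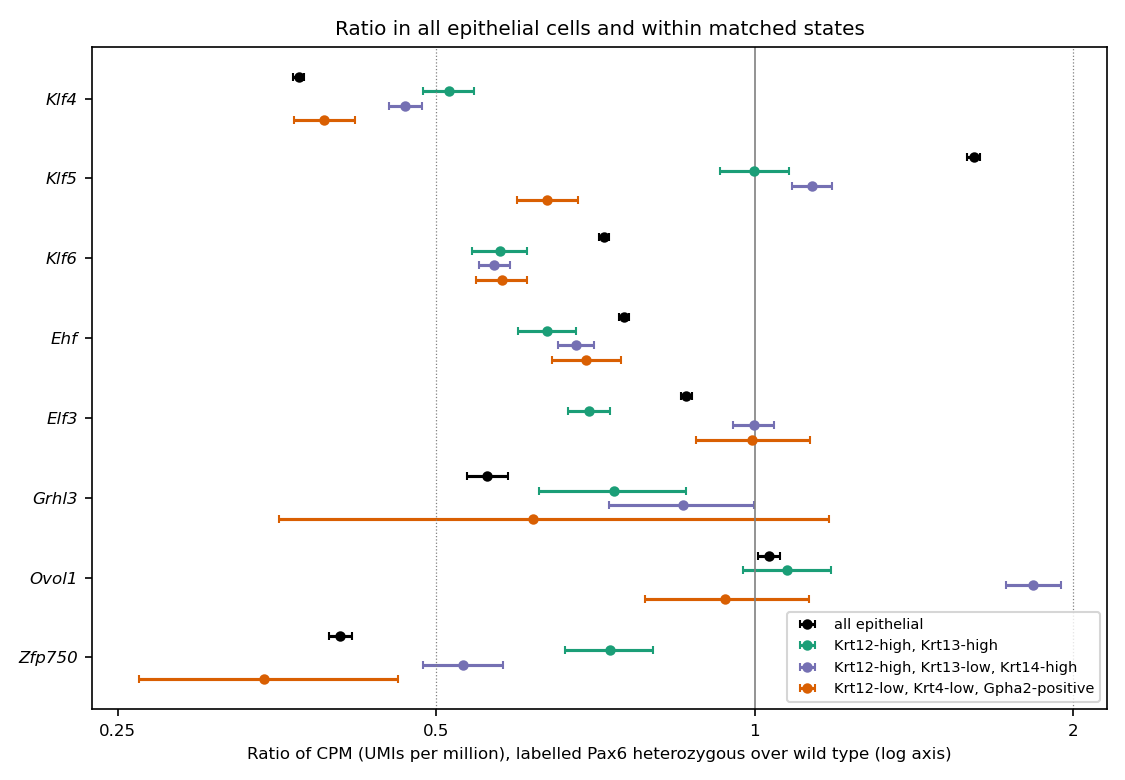
Ratio of CPM, library labelled Pax6 heterozygous over wild type, on a log axis, for each factor in all epithelial cells and in the 3 states with at least 50 cells of each library (bars are 95% intervals of counting error). Klf4 lies near or below 0.5 throughout, whereas the Klf5 ratio of 1.61 over all cells stands at 0.999, 1.13 and 0.636 within the states.

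The keratin-12 level itself was then used as a scale, in bins of the UMIs per 10000 of each cell. The library labelled Pax6 heterozygous had 5177 cells at 0, 1038 above 0 and under 20, 184 from 20 to 100, 325 from 100 to 300 and 72 at 300 or more. The wild-type library had 0, 176, 396, 4985 and 2995. Klf4 was lower in the library labelled Pax6 heterozygous in every shared Krt12 bin, though the cells of a bin were not fully matched. In the bin above 0 and under 20, Krt12 itself stood at 176 CPM against 755 CPM in wild type. Wild-type vessel, mural, Schwann and immune cells outside the gate held 1693 CPM of Krt12. In the bin from 20 to 100 the median depth was 16039 UMIs per cell against 5206.5 in wild type. From the lowest shared bin to the highest, the Klf4 ratio was 0.485, 0.575, 0.517 and 0.631. Cells labelled Pax6 heterozygous in the top Krt12 bin held 682 CPM of Klf4, and wild-type cells in the bin under 20 held 729 CPM, with overlapping intervals.

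Klf5 in the wild-type library was highest in the bin under 20, at 667 CPM, and stood at 403, 267 and 299 CPM in the next 3 bins. It was thus lowest from 100 to 300 and not in the top bin. Ovol1 was above wild type in the library labelled Pax6 heterozygous wherever Krt12 reached 20, and in the bin from 100 to 300 it stood at 189.9 CPM against 86.3 CPM (ratio 2.20, 2.06 to 2.35). That was 1 member at least 2-fold higher, where 7.16% of all genes were. In the top bin Elf3 (803 against 784 CPM) and Grhl3 (74.0 against 75.2 CPM) differed by less than counting error.

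**Figure D3:**
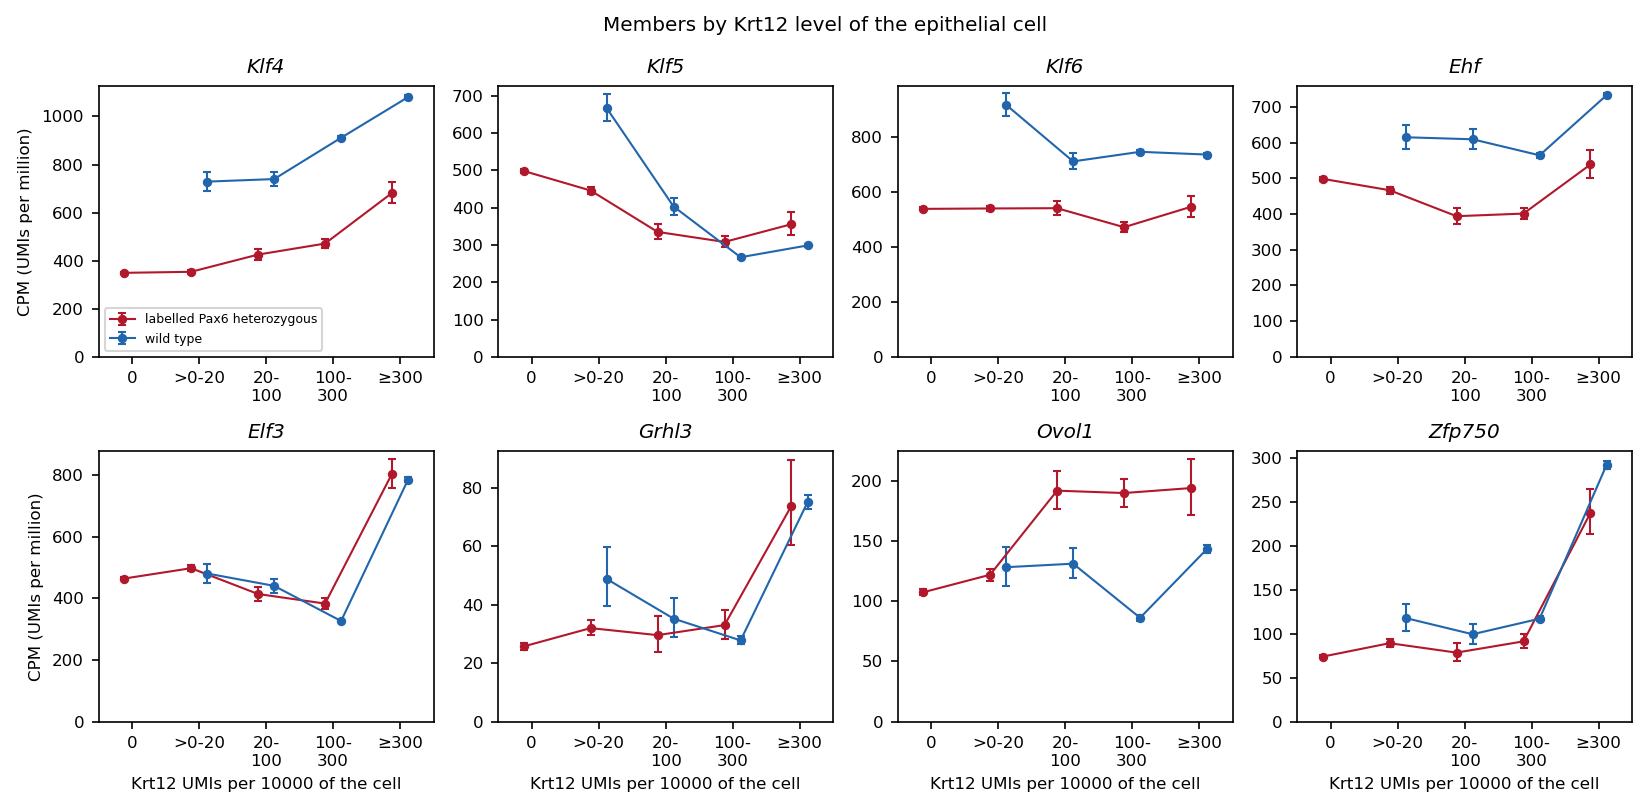
Level of each factor in CPM by the Krt12 level of the epithelial cell, with the library labelled Pax6 heterozygous in red and the wild-type library in blue (bars are exact 95% Poisson intervals, and the wild-type library had no cell at 0). Klf4 stays lower in red in every shared bin, Ovol1 is higher in red from 20 upward, and Elf3, Grhl3 and Zfp750 are highest in the top bin of both libraries.

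Across single cells the link to Krt12 was weak for most members by Pearson r. Pearson r of log-transformed UMIs per 10000 over the 6796 cells labelled Pax6 heterozygous was 0.184 for Klf4, -0.147 for Klf5 and 0.073 for Zfp750. It was -0.003 for Elf3 and 0.043 for Grhl3. Over the 8552 wild-type cells r was 0.219 for Klf4, -0.059 for Klf5, 0.278 for Zfp750, 0.225 for Elf3 and 0.180 for Grhl3. By rank (Spearman rho), wild-type values were 0.420 for Zfp750, 0.359 for Elf3 and 0.342 for Grhl3. The other members lay between 0.025 (Klf6) and 0.249 (Klf4). In the library labelled Pax6 heterozygous rho ran from -0.120 (Klf5) to 0.149 (Klf4). Among Krt12-high cells alone, Klf4 had an r of 0.265 in the library labelled Pax6 heterozygous and 0.255 in the wild-type library, above those of 98.8% and 96.9% of genes. Zfp750 had 0.225 and 0.353, Elf3 0.128 and 0.336, and Grhl3 0.118 and 0.243. The points are cells of 1 library that share its depth and free RNA. Values of this size in sparse counts are given as a description. The members' median r over all epithelial cells was 0.020 and 0.159, where the middle 90% of genes lay between -0.087 and 0.113 in the library labelled Pax6 heterozygous and between -0.145 and 0.163 in the wild-type library.

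Krt13 separated the members in both libraries. Elf3 in the library labelled Pax6 heterozygous stood at 833 CPM in the 1544 Krt13-high cells and at 302 CPM in the 5252 Krt13-low cells, a ratio of 2.76. In the wild-type library it stood at 1300.5 CPM in 886 cells and 372 CPM in 7666 cells, a ratio of 3.49. Grhl3 was 3.93-fold and Zfp750 3.54-fold higher in Krt13-high cells labelled Pax6 heterozygous, and 2.55-fold and 1.54-fold higher in wild-type ones. Thus 3 members were at least 2-fold higher in the library labelled Pax6 heterozygous, where 6.89% of genes were, and 3 (Elf3, Grhl3 and Ovol1) in the wild-type library, where 6.95% were. Klf5, Klf6 and Ovol1 differed in direction, with intervals that excluded 1. Klf6 was lower in Krt13-high cells labelled Pax6 heterozygous (352 against 621 CPM, ratio 0.567) and higher in wild-type ones (862 against 718 CPM, ratio 1.20). The ratio of Klf5 was 0.898 in the library labelled Pax6 heterozygous and 1.20 in the wild-type library, and that of Ovol1 was 0.950 and 2.05. The Krt13-high cells of the 2 libraries were not alike. Krt12-high cells made up 90 of the 1544 labelled Pax6 heterozygous and 857 of the 886 wild-type ones. Krt4 stood in the Krt13-high cells at 2354 CPM against 251 CPM. Within the Krt12-high Krt13-high state, Ovol1 stood at 212 CPM against 197 CPM. The difference between the libraries in these ratios was not tested.

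Krt14 ordered the same genes in reverse. In the third of cells with most Krt14, against the third with least, the ratio in the library labelled Pax6 heterozygous was 0.376 for Elf3, 0.363 for Grhl3 and 0.304 for Zfp750, and the wild-type ratios were 0.424, 0.415 and 0.552. Klf6 increased most with Krt14, 1.37-fold in the library labelled Pax6 heterozygous and 1.69-fold in the wild-type library. Over all epithelial cells, Gpha2-positive ones held less Elf3, Grhl3 and Zfp750 than Gpha2-negative cells of the same library, with ratios of 0.422, 0.307 and 0.281 in the library labelled Pax6 heterozygous and 0.660, 0.554 and 0.535 in the wild-type library. Krt4 gave a pattern like that of Krt13 for these genes. In Krt4-high against Krt4-low cells the ratio was 2.77 for Elf3, 3.95 for Grhl3 and 3.70 for Zfp750 in the library labelled Pax6 heterozygous. In the wild-type library, where 106 cells were Krt4-high, the ratios were 2.09, 2.23 and 1.22.

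Pearson r between members was taken over the 9 combinations of state and library with at least 50 cells. The highest values among the 28 pairs were 0.957 for Grhl3 and Zfp750, 0.916 for Elf3 and Grhl3 and 0.796 for Klf4 and Ehf. The lowest was -0.632, for Klf5 and Zfp750. These values share 2 libraries and are a description. The same measure was searched over all genes that reached 20 CPM in one library or both. With 9 points, so wide a search brings up high values by itself. By this measure, the genes most like Klf4 were Ahnak2 (r = 0.987), Adh1 and Gnai3. Those most like Klf5 were Prodh (r = 0.972), Adgrl3 and Cebpd, and those most like Klf6 were Atf3 (r = 0.948), Lysmd3 and Ier3. Ehf was most like Gak (r = 0.956), Atp5k and Pink1, and Elf3 was most like Muc20 (r = 0.992), S100a3 and Emp2. For Grhl3 they were Calml3 (r = 0.994), Crybg2 and Crb3, for Ovol1 Lrrfip1 (r = 0.946), Ehd4 and Maff, and for Zfp750 Adam15 (r = 0.977), Actr2 and Calml3.

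Klf6 varied from cell to cell together with immediate early genes, which are induced within minutes by many stimuli, tissue dissociation among them. In cells thinned to 5000 UMIs, r between Klf6 and Atf3 was 0.682 over 5938 cells labelled Pax6 heterozygous and 0.690 over 6944 wild-type cells, and that between Klf6 and Fosb was 0.693 and 0.629. Klf6 and Btg2 gave 0.664 and 0.664. Ovol1 followed at a lower level, with 0.434 and 0.335 for Atf3. Of the 16 immediate early genes in epithelial cells, 3 were at least 2-fold higher in the library labelled Pax6 heterozygous (Egr2, Egr3 and Nr4a1, the last at 259 against 99.3 CPM) and 1 was lower (Zfp36, at 558 against 1499.7 CPM), where 13.2% of all genes were higher and 6.44% lower. Their median log2 ratio was 0.09, beside 0.17 for all genes. With TMM scaling it was -0.24, beside -0.20 for all genes, with 3 genes higher and 3 lower. Atf3 stood at 767 CPM against 1031 CPM. The part of dissociation in the Klf6 difference was not tested.

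**Figure D4:**
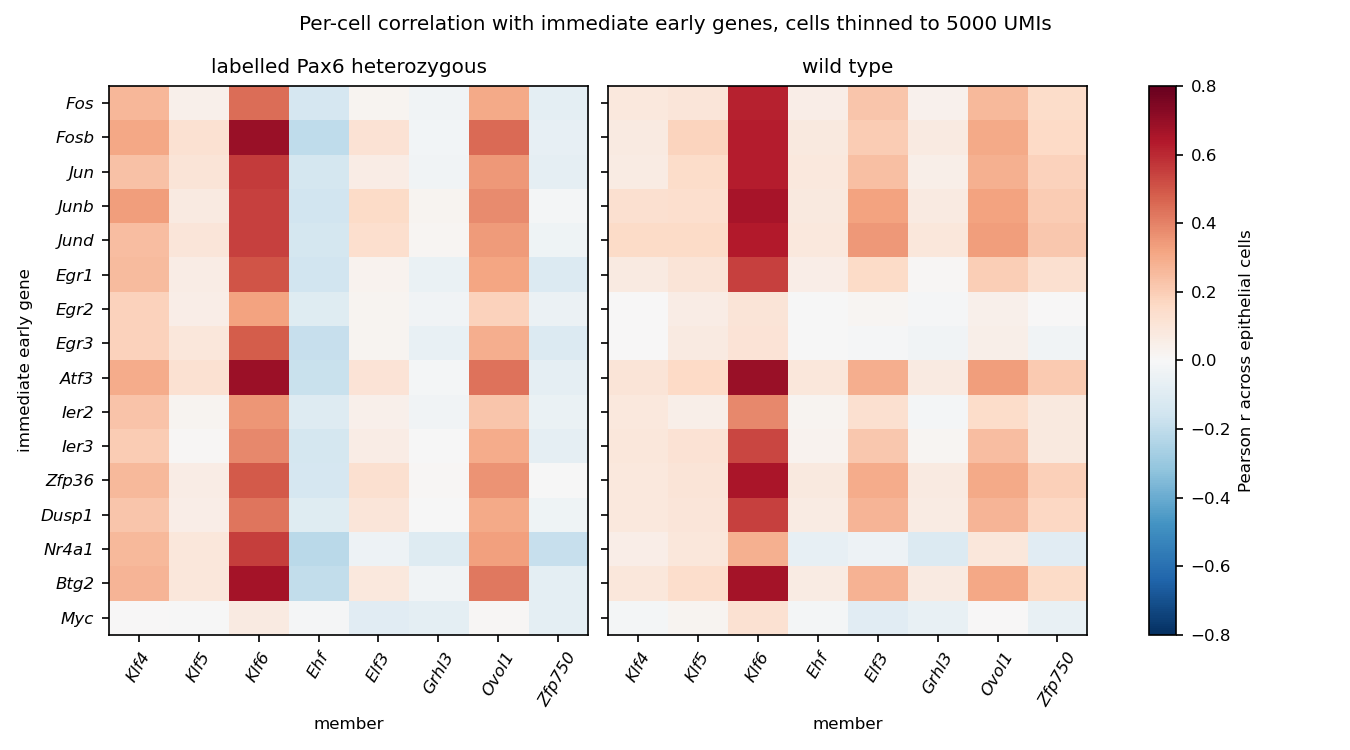
Pearson r across epithelial cells thinned to 5000 UMIs between each factor (columns) and 16 immediate early genes (rows), in the library labelled Pax6 heterozygous (left) and the wild-type library (right). The Klf6 column is the darkest in both, with r of 0.682 and 0.690 for Atf3.

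Outside the epithelium 2 groups of members appeared. Klf4 and Klf6 were present in every other class examined, whereas Klf5, Ehf, Elf3, Grhl3, Ovol1 and Zfp750 stood below their epithelial level in each. In cells with keratocyte markers, the stromal cells of the cornea, Klf4 ran higher, at 1180.2 CPM in 1124 cells labelled Pax6 heterozygous against 738 CPM in 671 wild-type cells (ratio 1.60, 1.55 to 1.65). Cells with endothelial markers held 1591 CPM against 1228 CPM (ratio 1.30, 1.19 to 1.41), and cells with Schwann markers 1254 CPM against 816 CPM (ratio 1.54, 1.30 to 1.82). The lower Klf4 level was thus found in epithelial cells and not in these 3 classes, although the difference between classes was not tested. Klf6 in keratocyte-marker cells stood at 341 CPM against 305 CPM (ratio 1.12, 1.06 to 1.18).

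**Figure D5:**
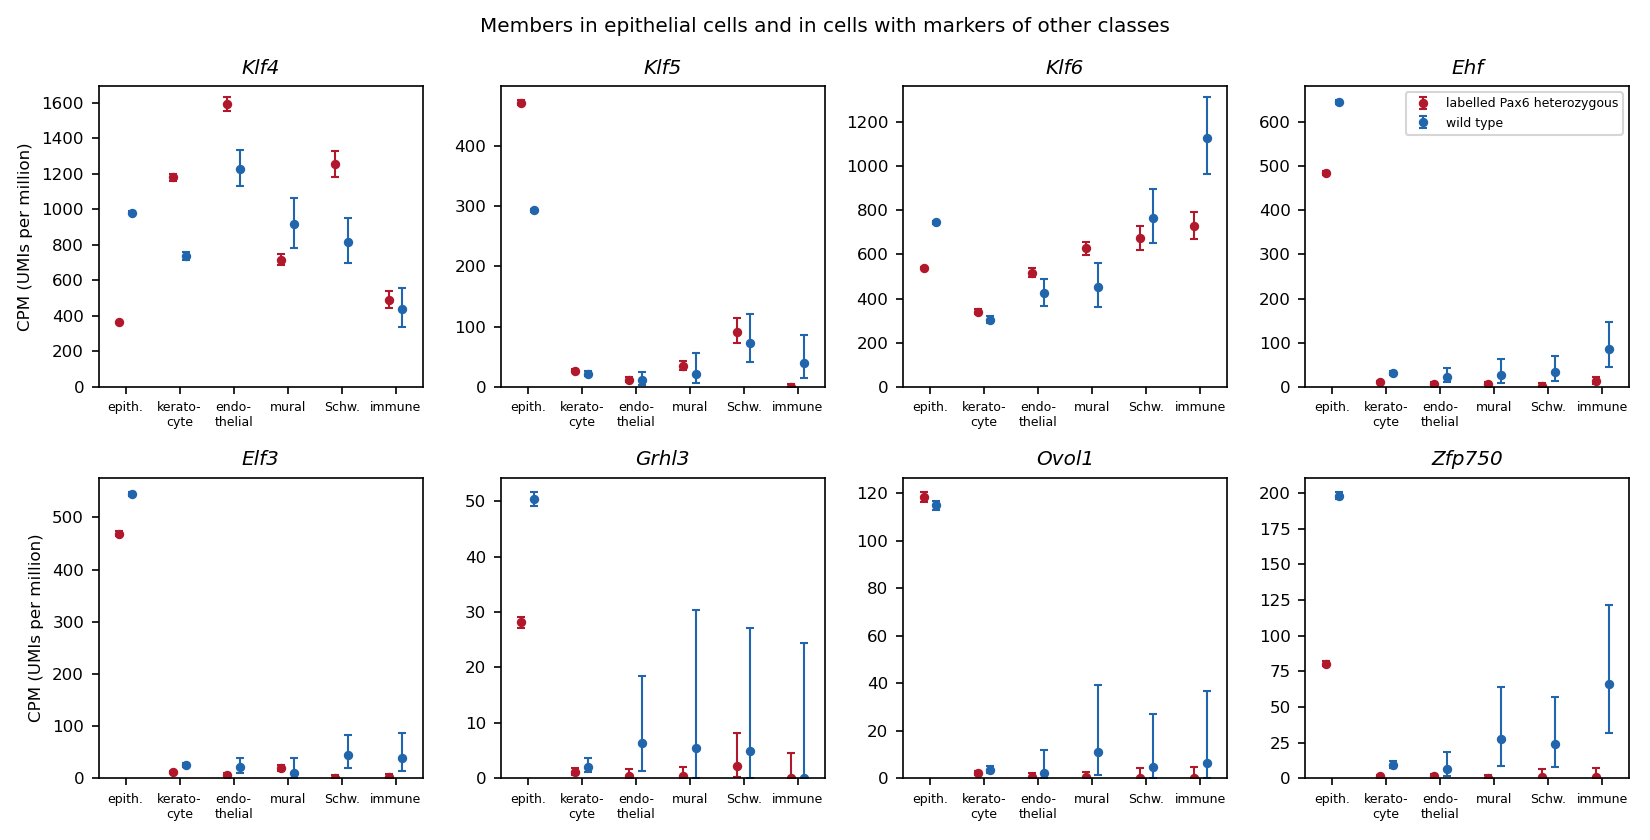
Level of each factor in CPM in epithelial cells and in cells with at least 3 markers of 5 other classes (Schw. is Schwann), with the library labelled Pax6 heterozygous in red and the wild-type library in blue (bars are exact 95% Poisson intervals). Klf4 is lower in red in epithelial cells (364 against 982) and higher in red in keratocyte-marker cells (1180.2 against 738).

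The number of members detected in a cell differed by 1. In cells thinned to 5000 UMIs the median was 4 of 8 in the library labelled Pax6 heterozygous and 5 of 8 in the wild-type library. At least 6 were found in 20.8% of cells labelled Pax6 heterozygous and in 33.3% of wild-type cells. Vessel, mural, Schwann and immune cells had a median of 2 in each library.

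Related genes were counted in epithelial cells. Of 23 Krüppel-like and SP genes outside the members, 11 reached 20 CPM. Among them 5 were at least 2-fold higher in the library labelled Pax6 heterozygous and 0 lower, beside 13.2% and 6.44% of all genes tested. Their median log2 ratio was 0.65, beside the 0.17 of all genes. The 5 were Klf12 (61.7 against 1.76 CPM), Klf13 (147 against 33.6 CPM), Klf2 (213 against 99.1 CPM), Klf9 (122 against 58.5 CPM) and Klf10 (69.3 against 32.5 CPM). With TMM scaling 2 were higher and 1 lower. Klf3, the gene of that list with most UMIs, stood at 272 CPM against 451 CPM.

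Of 20 further ETS genes 9 were tested, and 1 was at least 2-fold higher, Elk3 at 54.9 CPM against 24.5 CPM. Their median log2 ratio of 0.17 equalled that of all genes, and with TMM scaling it was -0.16, beside -0.20 for all genes. In the grainyhead and Ovol families 5 genes were tested and 1 was at least 2-fold higher: Tfcp2l1 at 45.2 CPM against 0.899 CPM. The close relatives Grhl2 (81.8 against 81.9 CPM) and Ovol2 (21.3 against 21.9 CPM) were nearly level, and Grhl1 stood at 46.3 CPM against 67.0 CPM.

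Among 24 tested regulators of epithelial differentiation outside these families, 8 were at least 2-fold higher and 3 lower in the library labelled Pax6 heterozygous, beside the same 13.2% and 6.44% of all genes. Their median log2 ratio was 0.66, beside 0.17 for all genes, and with TMM scaling 7 were higher and 4 lower. Barx2 stood at 262 CPM against 6.16 CPM, Tfap2b at 102 against 5.75 CPM and Id1 at 784 against 241 CPM. The lower genes included Prdm1 (10.2 against 24.2 CPM) and the clock repressor Nr1d1 (11.1 against 85.4 CPM). Of 25 tested differentiation genes, 11 were lower and 4 higher (Krt13, Krt4, Epcam and Sbsn), where 6.44% of all genes were lower and 13.2% higher. Their log2 ratios had a median of -0.92, beside 0.17 for all genes. With either TMM or DESeq2 scaling 16 were lower and 3 higher. The desmosomal genes Dsg1a (9.71 against 277 CPM) and Dsp (927 against 2322 CPM) were among the lower, as were Slurp1 (26.9 against 2799.6 CPM) and Aldh3a1, a corneal crystallin, at 2659 against 10801 CPM.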

How the data were processed

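The deposited matrices hold counts, raw UMIs per gene and barcode with no normalization, made by the authors with Cell Ranger 8.0.0 per the file headers, on GRCm38 per the submitters' processing notes. The lowest barcode held 500 UMIs, so barcodes had been selected before deposit. Barcodes with 500 or more genes, 1000 or more UMIs and no more than 20% of UMIs from mitochondrial genes were kept, 9542 in the library labelled Pax6 heterozygous and 10154 in the wild-type library. No doublet caller was run. Alternatives without cells holding markers of another class and without the 5% of cells with most UMIs stand in its place. A cell outside the gate was put in the class with most of its markers detected, with at least 3.

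UMIs were summed per class and library and divided by the class total without mitochondrially encoded genes. Intervals are exact 95% intervals, Poisson for levels, conditional binomial for ratios. Genes of fixed lists could be named where 2-fold apart or most abundant. Of the regulators outside these families and the differentiation genes, only some of those 2-fold apart are named. For each member the 3 genes most alike over states are named. The values of 1 listed gene are not reported here. The members and lists were chosen with earlier results of these data known. edgeR 4.0.16 (TMM) and DESeq2 1.42.0 gave alternative scaling factors only. Python 3.11.15 with scipy 1.17.1 was used, and the calls were tested on simulated data. Gene positions are from GENCODE on the same build.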

Additional observations from a re-analysis of the deposited data

Results flagged for a closer look

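Krt12-high and Krt12-low epithelial cells and cells with keratocyte, endothelial or Schwann markers were compared. Over these 5 classes, the ratio to wild type of the library labelled Pax6 heterozygous lay on opposite sides of 1 for 4 members, with intervals that excluded 1. The share of all genes that did so was not counted, so the 4 are not read as a result about the members as a set. Other divisions of the epithelium were not searched in this way, and Elf3, for one, had a ratio of 1.19 in Gpha2-negative and 0.760 in Gpha2-positive cells. None of these differences was tested, since each class has 1 library per genotype. Klf4 had ratios of 1.60 in keratocyte-marker cells, 1.30 in endothelial-marker cells and 1.54 in Schwann-marker cells, against 0.494 in Krt12-high and 0.481 in Krt12-low epithelial cells. Klf5 had ratios of 1.13 in Krt12-high epithelial cells and 1.24 in keratocyte-marker cells, against 0.731 in Krt12-low epithelial cells. For Klf6 the ratios were 1.12 in keratocyte-marker cells and 1.22 in endothelial-marker cells, against 0.680 in Krt12-high and 0.588 in Krt12-low epithelial cells. Ovol1 had a ratio of 1.67 in Krt12-high and 0.861 in Krt12-low epithelial cells.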

How the results depend on the processing

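Over 12 alternatives each, the ratio stayed below 1 for Klf4 (0.291 to 0.382), Zfp750 (0.302 to 0.475), Grhl3 (0.351 to 0.671), Klf6 (0.564 to 0.782) and Ehf (0.589 to 0.803) and above 1 for Klf5 (1.26 to 1.72). Those of Elf3 (0.514 to 1.04) and Ovol1 (0.665 to 1.13) crossed 1. The members' median log2 ratio was -0.77 with TMM scaling, -0.79 with DESeq2 size factors, -0.88 with the gate at 100 per 10000, -0.38 without the 5% of cells with most UMIs, and -0.35 both with cells thinned to 5000 UMIs and with cells weighted equally. The count of members at least 2-fold lower became 3, with Grhl3 added, under both scalings and the stricter gate. Genes at least 2-fold higher and lower, 939 and 457, numbered 555 and 794 with TMM, 543 and 825 with DESeq2 size factors, 7276 and 3128 with no minimum level, and 496 and 300 with a minimum of 50 CPM. The median log2 ratio of all genes was 0.17, and -0.20 and -0.22 under the 2 scalings. Moving the Krt12 limit of the states to 10 or 40 per 10000 turned the direction of Klf5, Elf3 and Ovol1 ratios whose intervals included 1, and of no other. Leaving out barcodes found in both libraries was an alternative chosen after seeing the data. No paired analysis was possible because there was 1 library per genotype, which also leaves no replicate to leave out. Depth limits Grhl3, Ovol1 and Zfp750 in states with few cells.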
